A study of Mus musculus with 16 samples.

Results

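Immunoglobulin variable segments, the germline genes that encode most of the variable domain of antibody chains, were described in RNA from mouse spleen. The segments were the genes of the heavy chain (Ighv), kappa light chain (Igkv) and lambda light chain (Iglv) loci with a mean of at least 10 estimated counts over the 8 whole spleen samples. This rule took 179 of the 348 variable segments in a table of 54838 genes, namely 83 of 185 heavy, 93 of 160 kappa and 3 of 3 lambda segments. The level in whole spleen therefore chose the segments, and their levels and their contrast between the 2 groups are given as a description. Just inside the minimum were Igkv4-73 with a mean of 10.25 counts and Ighv15-2 with 11.0 counts, and just outside it were Igkv4-71 with 8.58 and Igkv3-9 with 8.45. The 179 segments held 99.8% of all variable segment counts in each group, and 100 of the 348 segments were listed at 0 in all 16 samples. In the GENCODE M21 annotation, 128 of the 169 segments left out were pseudogenes, against 2 of the 179 taken (Igkv4-77 and Igkv4-73).

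The study set the size-selected fraction of C57BL/6 mouse spleen, which the labels name spleen glia, beside whole spleen. Spleens were minced and digested with enzymes, red blood cells were lysed, and what a strainer held back became the size-selected sample. Each group had 8 samples, with the same 8 sample numbers in both: 407, 408, 427 and 435 were male, and 436, 445, 447 and 460 were female. The labels name no treatment, transgene or age, and they do not say that both samples of a number came from 1 spleen or that each number was 1 mouse, so the p-values measure the spread between these samples. Totals ran from 13119992 to 19944440 estimated counts in the size-selected group and from 12153770 to 16282454 in whole spleen, with the lowest total in the whole spleen sample of number 427. Glia markers were present in the fraction: all 8 of the 8 tested genes of the list were higher there, where 37.5% of all genes tested were higher. The 10 genes of the list summed to 62.5 to 498.1 CPM (counts scaled to a common library size), against 1.61 to 9.87 in whole spleen. Mature B cell markers (14 genes) were also present in the size-selected samples, at a summed 1587 to 5471 CPM, against 7975 to 9855 in whole spleen.

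Each B cell joins 1 variable segment to diversity and joining segments of the heavy chain locus, and 1 to a joining segment of a light chain locus, so that the transcript of a cell carries the variable segments that its clone chose. A B cell that divides passes its rearranged genes to its daughters, and plasma cells, which secrete antibody, hold far more immunoglobulin mRNA per cell than resting B cells. The use of variable segments in a spleen is therefore a mixture of a broad resting repertoire and of clones that have grown or begun to secrete. In bulk RNA, fewer cells of a type and less RNA per cell cannot be told apart.

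All 83 heavy segments lie on chromosome 12 (GRCm38, chr12:113578504-116000461) on the minus strand, the 93 kappa segments on chromosome 6 (chr6:67555497-70704177) on either strand, and the 3 lambda segments on chromosome 16 (chr16:19085017-19260859). The longest transcript of every one of the 179 has 2 exons, the first encoding most of the leader peptide and the second the variable domain up to the join. The 8 segments with the smallest p for a difference between sample numbers, on which the results below turn, are printed from the GENCODE M21 transcripts as the last 180 bases of the second exon, 5′ to 3′. Capitals mark the codon of the conserved second cysteine that closes framework region 3, and the bases after it begin the third complementarity-determining region, which the join completes.
Ighv1-11 (chr12:114612243-114612422, minus strand): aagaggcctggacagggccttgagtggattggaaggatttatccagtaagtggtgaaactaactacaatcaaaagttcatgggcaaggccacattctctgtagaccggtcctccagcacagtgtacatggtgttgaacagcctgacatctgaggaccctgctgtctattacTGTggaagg
Ighv1-53 (chr12:115158403-115158582, minus strand): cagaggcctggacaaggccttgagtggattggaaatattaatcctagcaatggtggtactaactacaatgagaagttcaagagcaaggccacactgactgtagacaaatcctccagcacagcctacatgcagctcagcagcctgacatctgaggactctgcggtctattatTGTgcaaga
Ighv1-9 (chr12:114583569-114583748, minus strand): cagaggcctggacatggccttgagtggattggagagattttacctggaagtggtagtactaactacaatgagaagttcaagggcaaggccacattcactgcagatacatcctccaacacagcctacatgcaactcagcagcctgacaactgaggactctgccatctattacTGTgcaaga
Igkv19-93 (chr6:68736297-68736476, minus strand): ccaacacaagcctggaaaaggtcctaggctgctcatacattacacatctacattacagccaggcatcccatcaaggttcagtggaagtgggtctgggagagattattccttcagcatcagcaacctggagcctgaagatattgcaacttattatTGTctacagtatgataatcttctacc
Igkv4-55 (chr6:69607275-69607454, minus strand): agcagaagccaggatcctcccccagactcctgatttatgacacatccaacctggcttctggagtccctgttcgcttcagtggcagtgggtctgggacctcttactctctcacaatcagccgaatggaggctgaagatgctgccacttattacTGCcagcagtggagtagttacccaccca
Igkv4-63 (chr6:69377944-69378123, minus strand): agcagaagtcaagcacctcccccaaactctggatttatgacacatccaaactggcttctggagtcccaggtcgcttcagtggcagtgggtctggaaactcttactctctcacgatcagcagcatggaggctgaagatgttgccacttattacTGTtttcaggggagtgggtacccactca
Igkv4-72 (chr6:69226854-69227033, minus strand): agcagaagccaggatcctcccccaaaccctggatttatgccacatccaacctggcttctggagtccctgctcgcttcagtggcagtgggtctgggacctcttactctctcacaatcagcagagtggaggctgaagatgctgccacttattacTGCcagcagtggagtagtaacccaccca
Igkv5-39 (chr6:69900424-69900603, minus strand): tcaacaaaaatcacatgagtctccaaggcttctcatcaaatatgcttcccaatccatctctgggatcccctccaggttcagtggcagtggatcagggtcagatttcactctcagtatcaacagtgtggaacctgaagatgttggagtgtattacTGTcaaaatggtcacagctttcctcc

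These are germline sequences, and mutations that B cells add are not in them. The 3 segments of the Igkv4 family in this set are close relatives: Igkv4-55 and Igkv4-72 were 95.8% identical over their transcripts, and Igkv4-55 and Igkv4-63 were 91.8% identical. The closest of the other segments of its locus was Igkv4-68 for Igkv4-55 (96.3%) and Ighv1-55 for Ighv1-53 (95.4%), while Ighv1-11 and Igkv19-93 had no relative above 81.8% and 80.1%.

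Variable segments took a small share of all RNA, and a smaller one in the size-selected fraction. In whole spleen the 179 segments held 0.425 ± 0.117% of all gene counts (SD, n = 8), with a lowest value of 0.274%, a median of 0.387% and a highest of 0.623%. In the size-selected samples they held 0.218 ± 0.0583% (SD, n = 8), from 0.119% through a median of 0.209% to 0.291%. The highest whole spleen value was that of number 427, the sample with the lowest total, and without number 427 the means were 0.397% and 0.209%. As deposited the groups overlapped. With restored counts, in which constants found in the size-selected columns of other genes were divided out, they did not, as the highest size-selected value was then 0.267%. In the deposited values the size-selected sample was lower in all 8 numbers, at 0.434 to 0.571 times the whole spleen sample of the same number. Number 460 was the lowest of its group for heavy, kappa and lambda segments alike, in both groups. Its size-selected sample, which had the highest total, held 0.0258%, 0.0791% and 0.0137% of all counts in these loci.

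**Figure D1:**
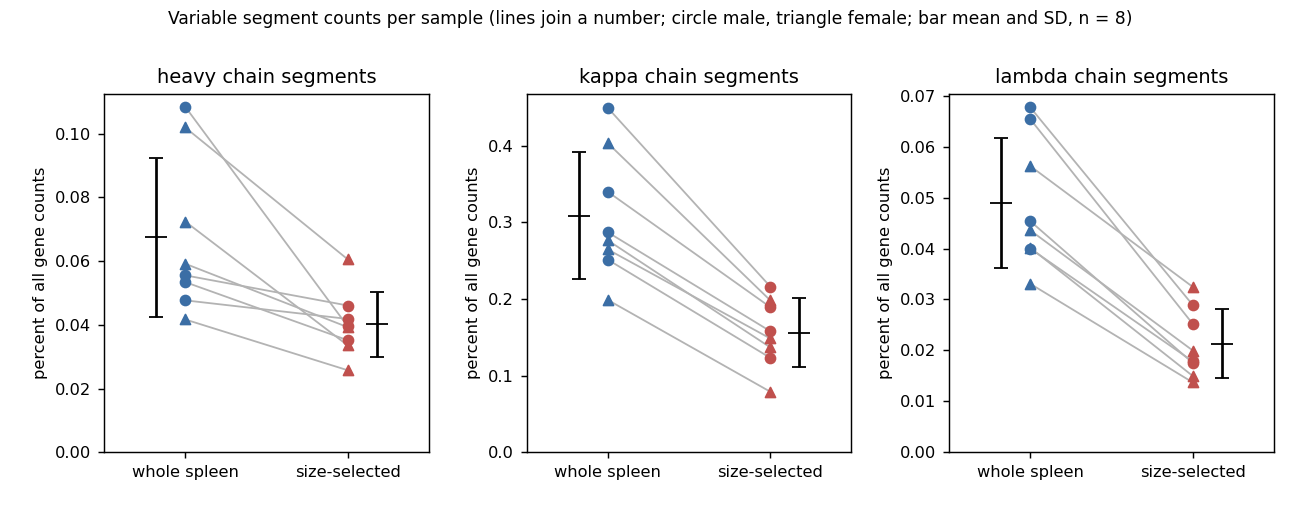
Percent of all gene counts taken by heavy, kappa and lambda variable segments (vertical axes, each from 0) in whole spleen and size-selected samples; lines join the 2 samples of a number, circles are male, triangles female, and black bars are the mean and SD of 8 samples. Every line falls from whole spleen to the size-selected sample, and the 2 groups are apart only for the lambda segments.

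Kappa segments made up most of the variable segment counts. In whole spleen, 72.7 ± 1.17% of the counts were kappa, 15.7 ± 2.32% heavy and 11.6 ± 1.46% lambda (SD, n = 8), and the kappa counts were 6.33 times the lambda counts, with a range of 5.02 to 7.18. The size-selected shares were 71.4 ± 3.77% kappa, 18.8 ± 2.89% heavy and 9.80 ± 1.32% lambda (SD, n = 8), and the kappa counts were 7.43 times the lambda counts (5.76 to 9.14). The heavy share was higher in the size-selected sample in 6 of 8 numbers and the lambda share was lower in 7 of 8. Iglv1 led the lambda locus, with 59.8 ± 6.64% of lambda counts in whole spleen, followed by Iglv2 with 33.5 ± 6.46% and Iglv3 with 6.72 ± 2.61% (SD, n = 8). The 3 lambda segments kept this order without overlap in whole spleen. Among size-selected samples Iglv1 ranged from 37.8% in number 460 to 88.5% in number 436, and Iglv2 from 7.82% in number 436 to 58.7% in number 460, so that number 460 held more Iglv2 than Iglv1.

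In the heavy locus, the Ighv1 family, the largest by number of segments, supplied 42 of the 83 segments and 55.4 ± 4.84% of the heavy counts in whole spleen (SD, n = 8), and 55.1 ± 5.74% in the size-selected samples. Ighv5 followed with 9 segments and 9.90 ± 2.14% in whole spleen. The most abundant single heavy segments were Ighv1-64, with 4.51 ± 1.32% of heavy counts in whole spleen, and Ighv1-55, with 4.08 ± 1.07% (SD, n = 8). In the kappa locus, the Igkv1 family (8 segments) held 15.8 ± 2.69% and the Igkv4 family (26 segments) 15.2 ± 4.49% of the kappa counts in whole spleen. The most abundant single kappa segments were Igkv1-117 at 5.13 ± 1.21%, Igkv19-93 at 4.98 ± 3.43% and Igkv1-135 at 4.94 ± 0.726% (SD, n = 8). These 3 differ little in mean, yet Igkv1-135 stayed between 3.97% and 5.94% in whole spleen, while Igkv19-93 ran from 1.87% to 10.5%.

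Segments from every part of both large loci were in use. When the heavy segments of the table were cut into 3 equal parts by their distance from the constant genes, the nearest part held 30 of 62 segments and 31.3 ± 4.42% of heavy counts in whole spleen, the middle part 24 of 62 and 26.8 ± 3.83%, and the farthest part 29 of 61 and 42.0 ± 2.39% (SD, n = 8). Among kappa segments the nearest part held 41.1 ± 4.12%, the middle part 21.8 ± 6.14% and the farthest part 37.1 ± 5.85% of kappa counts. The shares of the parts in the size-selected samples were within 3 percentage points of these for both loci.

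Fewer segments carried the counts in the size-selected samples. The effective number of segments, which is the inverse of the summed squared shares and equals the number of segments when all are equal, was 36.4 ± 6.47 for the heavy locus in whole spleen and 29.7 ± 7.91 in the size-selected samples (SD, n = 8). Whole spleen values ran from 26.9 in number 436 to 44.0 in number 435, and size-selected values from 20.9 to 43.9 in the same numbers. For the kappa locus the effective number was 34.7 ± 4.05 in whole spleen and 28.4 ± 5.91 in the size-selected samples (SD, n = 8). It was lower in the size-selected sample in 8 of 8 numbers for heavy and 7 of 8 for kappa, though the groups overlapped in both loci. The 5 most abundant heavy segments of a sample together took 25.8 ± 4.55% of heavy counts in whole spleen and 31.1 ± 6.32% in the size-selected samples (SD, n = 8).

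Shares of single segments varied widely from sample to sample, and more so in the size-selected group. The coefficient of variation (CV, the SD over the mean of the 8 shares) had a median of 0.408 over the 179 segments in whole spleen, from 0.111 to 1.71, and a median of 0.665 in the size-selected samples, from 0.240 to 1.87. It was higher in the size-selected samples for 160 of the 179 segments, and it passed 1 for 7 segments in whole spleen and for 38 in the size-selected samples. These samples also held fewer variable segment counts, a mean of 33580 against 61280, and the part of depth in the difference was not tested. A measure that sets counting error aside, the biological coefficient of variation that edgeR estimates per gene within a group, had a median of 0.343 over 153 segments and 0.199 over 11699 genes in whole spleen. The size-selected median was 0.537 over 113 segments and 0.241 over 13340 genes.

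**Figure D2:**
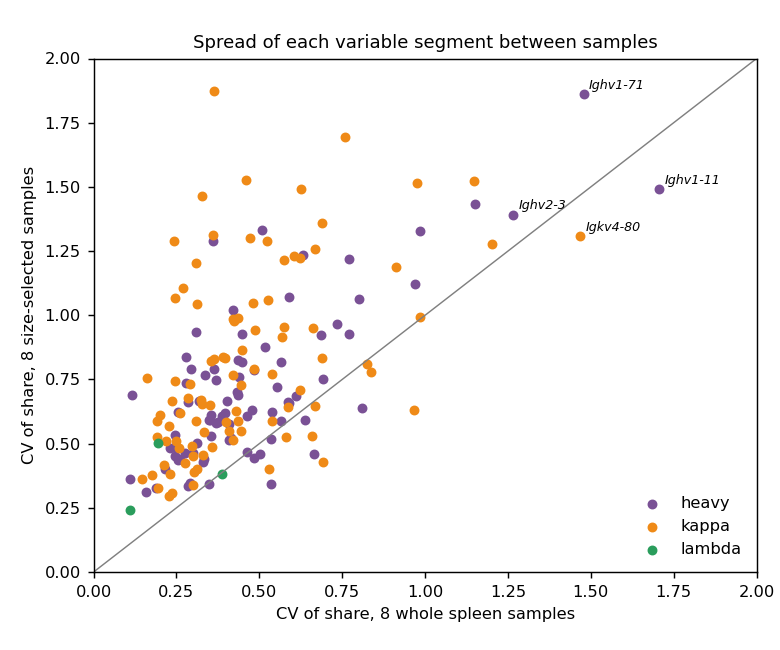
CV of the share of each of the 179 variable segments over the 8 whole spleen samples (horizontal axis) and the 8 size-selected samples (vertical axis), coloured by locus, with the line of equal CV. Most points (160 of 179) lie above the line, and the 4 named segments have the largest CV in whole spleen among heavy and kappa segments.

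The extremes of this spread were segments near a low level in most samples and far above it in 1 or 2. Ighv1-11 had the largest CV in whole spleen. Its share of heavy counts there was 12.1% in number 445 and 8.49% in number 408, and between 0.107% and 0.471% in the other 6 numbers. The size-selected samples were again highest in number 445 (13.1%) and number 408 (8.72%), with 3.35% in number 460 and at most 0.857% in the other 5. Ighv1-71 took 2.51% of heavy counts in whole spleen of number 445 and 0.0331% to 0.567% in the others, and 4.30% in the size-selected sample of number 445. Igkv4-80 took 2.89% of kappa counts in whole spleen and 2.53% in the size-selected sample of number 447, against at most 0.744% and 0.989% in the others. Ighv2-3 took 3.56% and 4.01% of heavy counts in number 427, against at most 0.667% and 0.744% in the others. At the other end, Ighv2-2 stayed between 0.653% and 0.892% of heavy counts in whole spleen (CV 0.111), and Ighv1-26 between 2.10% and 3.51%.

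Whether a segment differed between sample numbers in the same way in both groups was tested with edgeR's quasi-likelihood F test of the 7 number terms in a fit of group and number over all 16 samples, with Benjamini-Hochberg adjustment over the 14510 genes tested. The rule used only the mean over whole spleen and not the differences between numbers, though a high value in 1 number can lift the mean of a segment near the minimum. Of the 179 segments 166 passed the filter on low counts, and 26 of them differed between numbers (15.7%), against 0.717% of all genes tested (104 genes). The 26 were 11 heavy, 14 kappa and 1 lambda segment (Iglv1), and they made up 25.0% of all genes called. An unadjusted p under 0.05 was found for 112 of the 166 (67.5%), against 14.0% of all genes tested. The number terms contain the difference between the sexes. When numbers were tested within sex, 20 of the 26 were called, where 0.538% of all genes were. The 26 were highest in whole spleen of number 436 in 9 cases, of 427 in 6, of 447 in 4, of 445 in 3, of 407 in 2, of 408 and 435 in 1 each and of 460 in none. The highest number was the same in both groups for 22 of the 26, which a test of terms common to both groups favours, so this count is a description. Of the 26 calls, 8 held when any 1 number was left out (Ighv1-11, Ighv1-75, Igkv19-93, Igkv3-4, Igkv4-55, Igkv4-63, Igkv4-72 and Igkv5-39). The count fell to 14 without number 445 and to 17 without number 436, where 0.336% and 0.503% of all genes tested were called.

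Igkv4-55 had the smallest p of all 14510 genes. Its share of kappa counts in whole spleen was 12.2% in number 436 and 6.67% in number 427, and 1.05% to 4.41% in the other 6 numbers, and the size-selected samples followed with 14.7%, 7.41% and 0.965% to 5.11%. In CPM it reached 502.6 and 297.0 in whole spleen of numbers 436 and 427 and 23.5 to 120.8 in the others (adjusted p = 4.45e-07, edgeR). Igkv4-63, of the same family, was highest in number 427, with 2.19% of kappa counts in whole spleen and 4.11% in the size-selected sample, and next in number 436, with 1.09% and 1.38% (edgeR, adjusted p = 0.00248). Igkv4-72 was highest in number 436, at 2.14% and 2.85%, followed by number 435, at 1.57% and 1.40% (edgeR, adjusted p = 0.00225). The 3 segments are thus each high in number 436, alone or with 1 further number, in both of its samples. The part of reads shared between these close relatives was not tested.

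Several heavy segments stood out in a single number. Ighv1-53 held 10.8% of heavy counts in whole spleen and 12.9% in the size-selected sample of number 436, and 1.99% to 2.92% and 1.43% to 3.01% in the other 7 numbers (edgeR, adjusted p = 1.59e-05, and 0.289 without number 436). Ighv5-4 was also highest in number 436, at 8.93% and 11.2% (edgeR, adjusted p = 0.00927, and 0.527 without it). Ighv1-9 held 10.6% and 12.3% in number 447 and no more than 4.11% and 4.37% in the others (edgeR, adjusted p = 0.00219, and 0.0652 without number 447). Ighv1-80 was highest in number 427, at 7.05% and 8.69% (edgeR, adjusted p = 0.0109, and 0.0728 without it). Ighv1-11, high in 2 numbers as given above, had an adjusted p of 0.0012 with edgeR.

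**Figure D3:**
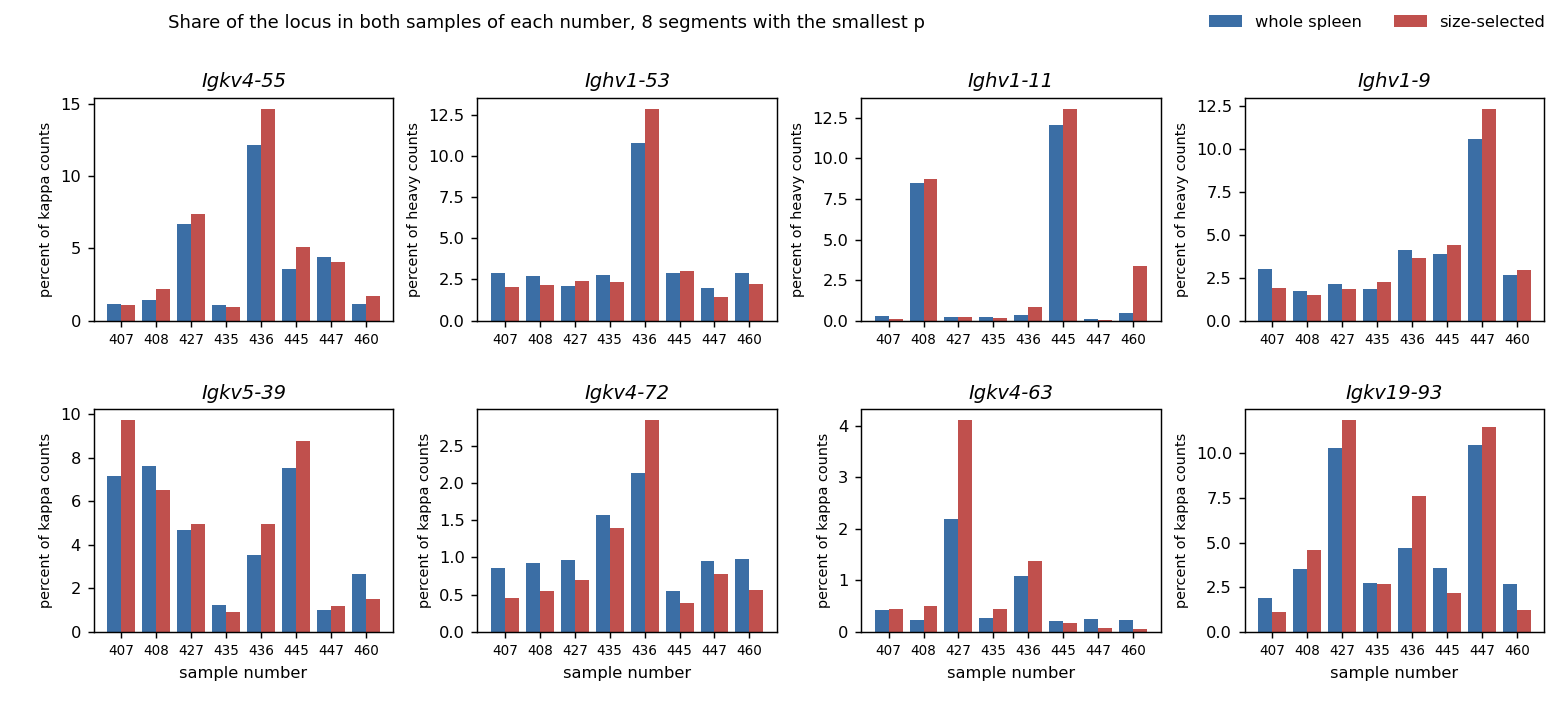
Percent of the counts of its locus (vertical axes from 0) taken by each of the 8 segments with the smallest p for a difference between numbers, in the whole spleen (blue) and size-selected (red) sample of each of the 8 numbers. The tallest bar is at the same number in both groups for all but Igkv19-93 and Igkv5-39, which the choice by terms common to both groups favours, as in Igkv4-55 at 436 (12.2% and 14.7%) and Ighv1-53 at 436 (10.8% and 12.9%).

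Other kappa segments were high in several numbers at once. Igkv5-39 took 7.15%, 7.63% and 7.55% of kappa counts in whole spleen of numbers 407, 408 and 445, and 1.02% to 4.67% in the others (edgeR, adjusted p = 0.00219). Size-selected samples of those numbers gave 9.74%, 6.54% and 8.76%, with at most 4.97% elsewhere. Igkv19-93 took 10.3% and 10.5% in whole spleen of numbers 427 and 447, and 11.9% and 11.5% in their size-selected samples, with at most 4.68% and 7.61% in the others (edgeR, adjusted p = 0.00306). Iglv1 passed narrowly (edgeR, adjusted p = 0.0339) and lost the call when any 1 number but 427 was left out.

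Segments that stood out in a number were also counted. A segment was counted as high in a number where its share was at least 3 times the median of the other 7 numbers in both samples of that number, with at least 10 counts; this threshold was chosen after the values were seen. There were 32 such cases in 27 segments: 10 in number 436, 6 in 427, 5 in 407, 4 each in 445 and 447, 2 in 435, 1 in 408 and none in 460. Among them, Ighv5-2 in number 435 lies near the minimum of the rule, with a mean of 14.25 counts. Its high number lifts that mean, at 0.518% of heavy counts in whole spleen against a median of 0.0884% in the others. Segments high in whole spleen of 1 number and in the size-selected sample of a different number averaged 0.286 to 1.43 per number. Number 460 had 4 segments high in whole spleen and 16 in the size-selected sample, with none in common. The sample with the highest share was the same number in both groups for 74 of 179 segments (41.3%). On the CPM scale it was the same for 78 of the 166 tested segments (47.0%) and for 3144 of the 14510 genes tested (21.7%).

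Of the 11 constant genes tested 3 differed between numbers, and of the 12 plasma cell genes 1, where 0.717% of all genes tested did. Ighg2b, the constant gene of the IgG2b class, was at 553.6 CPM in whole spleen of number 436 and 309.9 in number 427, and at 30.4 to 123.7 in the other 6 numbers (edgeR, adjusted p = 0.000665). In the size-selected samples it was again highest in number 436 (367.6 CPM) and number 427 (146.7 CPM), the 2 numbers in which Igkv4-55 was highest. Igkc, the kappa constant gene (adjusted p = 0.0262, edgeR), Iglc1 (adjusted p = 0.0225) and Jchain, which joins IgM and IgA subunits in plasma cells (adjusted p = 0.00248), also differed between numbers. Jchain reached 2492 CPM in whole spleen of number 427 and 2260 in number 436, and 800.9 to 1798 in the others. The 8 erythroid genes of the list differed between numbers as well (edgeR), with a summed 471.4 to 24190 CPM in whole spleen. The part of these genes in the segment differences was not tested.

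Agreement over all segments was then described by taking, for each sample, the deviation of the log2 share of every segment from the mean of its group, and correlating these deviations across the 179 segments between each size-selected and each whole spleen sample. Segments are not independent replicates, and no p is given. Samples of the same number had a mean Pearson r of 0.51 (SD 0.20, 8 numbers), and samples of different numbers a mean of −0.07, from −0.32 to 0.23. The deviations of a segment sum to 0 within a group, so a positive same-number mean by itself pulls the different-number mean below 0. The same-number values were 0.69 in 427, 0.68 in 436, 0.65 in 445, 0.53 in 447, 0.52 in 435, 0.45 in 407, 0.44 in 408 and 0.09 in 460. The sample with the best agreement was the one of the same number for 7 of 8 size-selected and 7 of 8 whole spleen samples. Heavy segments alone gave a mean of 0.54 and kappa segments alone 0.48, and the 105 segments with a mean of at least 100 counts gave 0.64. Over the 14344 other genes tested, the same-number mean was 0.19, from 0.11 to 0.37.

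**Figure D4:**
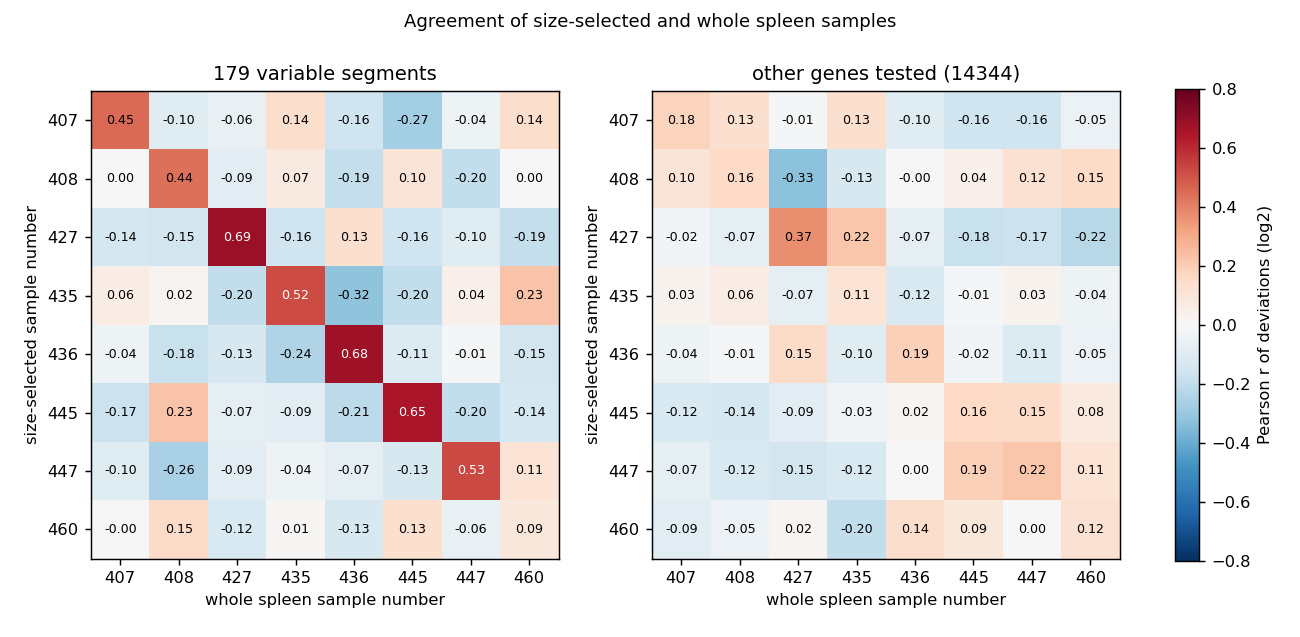
Pearson r, across genes, of log2 deviations from the group mean between each size-selected sample (rows) and each whole spleen sample (columns), for 179 variable segments (left, deviations of shares) and for the other 14344 genes tested (right, deviations of CPM); the colour scale runs from −0.8 to 0.8. The diagonal of same numbers is high on the left except at 460 (0.09).

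Number 460 was the exception. Its size-selected sample had r = 0.15 with whole spleen of number 408 and 0.13 with that of number 445, both above its own 0.09. Its whole spleen sample had r = 0.23 with the size-selected sample of number 435, 0.14 with that of 407 and 0.11 with that of 447. None of these correlations was high. Over all genes tested, the size-selected sample agreed best with its own number, at 0.13 against 0.11 with number 436. The whole spleen sample of number 460 agreed better with the size-selected sample of number 408 (0.15) than with its own (0.13). Without the variable segments the size-selected sample had 0.12 with its own number and 0.14 with number 436. Whether both samples of number 460 came from 1 spleen was not tested. When deviations were taken from the mean of the same sex, the same-number mean was 0.51 with a minimum of 0.22, and all 8 samples of each group agreed best with their own number. Centring within the 4 samples of a sex pulls the correlations with other numbers of that sex further below 0. This favours the own number, so these matches are a description. Ighv1-64 shows the difference in number 460: it took 14.0% of heavy counts in the size-selected sample and 5.98% in whole spleen, against 2.24% to 6.27% and 3.14% to 6.46% in the other numbers. Without number 460 the mean same-number r was 0.58 over the other 7.

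Between the groups, the CPM of the segments were lower in the size-selected samples, as a description, since the whole spleen level chose them. Of 166 tested segments, 100 were lower and 0 higher by edgeR (adjusted p under 0.05, 16 samples), which is 60.2%, where 30.4% of all genes tested were lower, 37.5% higher and 67.9% either. With the number as a block, which pairs the 2 samples of a number, 151 of the 166 were lower, where 31.3% of all genes tested were lower in that fit. The median log2 fold change of the 166 was −1.07, from −3.2 to 0.32, and that of all genes tested was 0.05. It was −0.88 for heavy (36 of 77 lower), −1.18 for kappa (61 of 86 lower) and −1.47 for lambda segments (3 of 3 lower). The CPM ranges of the groups did not overlap for 17 of the 166 segments (10.2%), where 11.6% of all genes tested were lower without overlap.

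The kappa segments included the largest differences. Igkv9-123 was at 1.48 to 11.0 CPM in whole spleen, with a mean of 3.86 ± 3.17 (SD, n = 8), and at 0.0481 to 0.840 CPM in the size-selected samples, with a log2 difference of −3.2 ± 0.53 (SE). Igkv7-33 averaged 17.6 ± 10.2 CPM in whole spleen and 2.53 ± 3.82 in the size-selected samples (SD, n = 8), where number 435 alone reached 11.8 CPM, for a log2 difference of −2.78 ± 0.61 (SE). Igkv4-61 and Igkv4-69 followed, at −2.49 ± 0.32 and −2.08 ± 0.31 (SE). At the other end Igkv14-130 averaged 2.10 ± 1.45 and 2.61 ± 3.69 CPM (SD, n = 8), with a log2 difference of 0.32 ± 0.68 (SE) that turned to −0.54 with the number as a block and to −0.18 without number 436, whose size-selected sample held 10.9 CPM. Igkv4-55 and Ighv1-53, which had the smallest p between numbers, were lower in all 8 size-selected samples than in whole spleen of the same number, at −0.85 ± 0.72 and −0.80 ± 0.61 (SE; adjusted p = 0.304 and 0.247, edgeR). With the number as a block they were at −0.88 ± 0.09 and −1.0 ± 0.11 (SE; adjusted p = 2.02e-06 and 6.15e-06, edgeR).

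**Figure D5:**
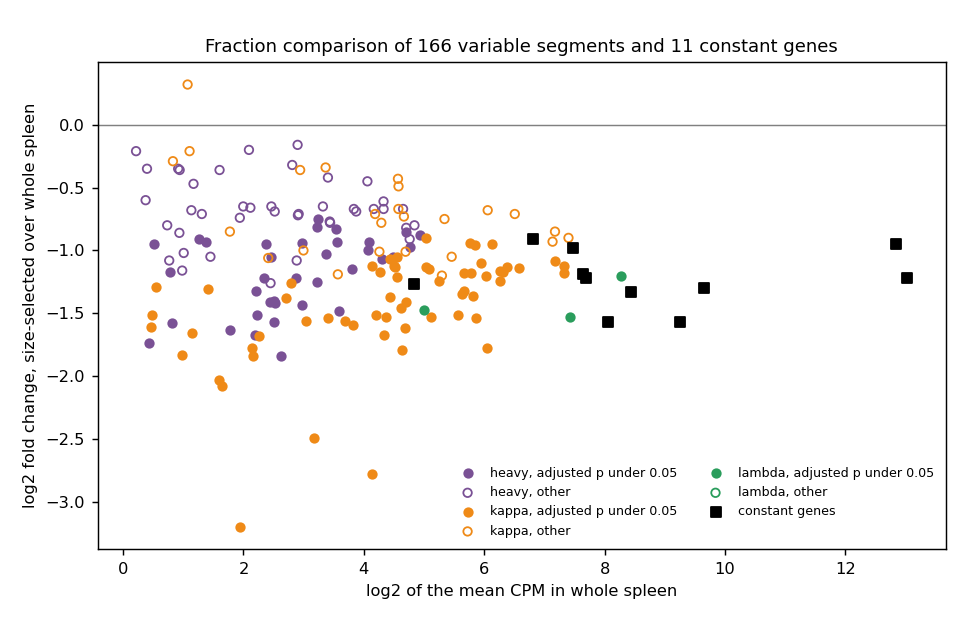
Log2 fold change of size-selected over whole spleen samples (vertical axis) against the log2 mean CPM in whole spleen (horizontal axis) for 166 variable segments, filled where the edgeR adjusted p is under 0.05, and for 11 immunoglobulin constant genes (black squares). All but 1 of the segments lie below 0, with a median of −1.07, and the constant genes lie in the same range as the more abundant segments.

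Other genes of antibody production were taken from lists and tested in the same fit, in which 30.4% of all genes tested were lower and 37.5% higher. Of the heavy constant genes, 5 of 7 tested were lower in the size-selected samples and none higher, with a median log2 fold change of −1.19. Ighm, which encodes the heavy chain of IgM, fell from 7324 ± 1871 CPM in whole spleen to 3781 ± 1058 (SD, n = 8), with a log2 fold change of −0.95 ± 0.18 (SE) and an edgeR adjusted p of 9.99e-05. All 4 light constant genes were lower (median −1.28), with Igkc at 8351 ± 1880 and 3576 ± 1062 CPM (SD, n = 8). Ighg2b and Ighg2c did not pass, at −0.98 ± 0.66 and −1.19 ± 0.71 (SE), but were lower with the number as a block (edgeR, adjusted p = 4.95e-05 and 0.00869), where all 7 heavy constant genes passed. The 16 joining and diversity segments of the list were at 0 in all 16 samples, so the table gives no account of them.

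The lists that follow stand beside the same 30.4% lower and 37.5% higher of all genes tested. Among B lineage markers, 12 of 14 mature B cell genes were lower and none higher (median −1.11). Of these, Cd79a, a signalling chain of the B cell receptor, fell from 2990 ± 543 to 831 ± 346 CPM (SD, n = 8). Of 12 plasma cell genes, 8 were lower and 2 higher (median −0.90). Jchain and Mzb1, an endoplasmic reticulum chaperone of antibody-secreting cells, were among the lower, and Prdm1 and Sdc1 were the 2 higher. Xbp1 (log2 fold change −0.03, edgeR, adjusted p = 0.734) and Tnfrsf17 did not pass. Other cells also use Prdm1 and Sdc1, and the part of such cells was not tested. Both tested genes of the recombination list, Vpreb3 and Dntt, were lower, and Rag1, Rag2 and Vpreb1 averaged under 1 CPM in both groups. Of the germinal centre genes, Fas and S1pr2 were higher and Rgs13 was lower. T cell genes were lower in 9 of 10 cases (median −1.57), fibroblast genes higher in 9 of 9 (median 7.0), and erythroid genes lower in 4 of 8, or in 8 of 8 with the number as a block. The block also made 13 mature B cell genes lower (adding Cd22), 9 plasma cell genes lower (adding Tnfrsf17) and 1 T cell gene higher (Cd4, edgeR, log2 fold change 0.32, adjusted p = 0.0371).

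Sex was tested within each group, 4 female against 4 male samples. In whole spleen 2 of 177 tested segments differed (edgeR), both lower in females, where 0.194% of all genes tested differed and 0.0971% were lower in females, and 38 segments (21.5%) had an unadjusted p under 0.05, close to the 16.1% of all genes tested. Igkv15-103 was at 69.9 to 86.1 CPM in the 4 males and 32.0 to 40.4 CPM in the 4 females, a log2 difference of −1.11 ± 0.13 (SE) for female over male (edgeR, adjusted p = 0.00244). Igkv8-27 was at 63.8 to 77.9 CPM in males and 34.2 to 43.6 CPM in females, at −0.86 ± 0.12 (SE), with an adjusted p of 0.0143 (edgeR) that rose to 0.0726 to 0.0783 when number 445, 447 or 460 was left out. The sexes did not overlap for either segment in whole spleen. In the size-selected samples 0 of 153 segments passed (edgeR; 0.0397% of all genes tested did), 32 (20.9%, against 4.18% of all genes tested) had an unadjusted p under 0.05, and DESeq2 called 3 (0.13% of all genes). There Igkv15-103 had a log2 difference of −1.24 ± 0.42 (SE) and Igkv8-27 one of −0.21 ± 0.21 (SE); whether the sex difference differs between the groups was not tested.

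Some segments are too alike for short reads to tell apart, and the submitters' processing notes name RSEM, which divides reads shared by several genes between them by estimation, without saying how it was run. Of the 179 segments, 23 belonged to 12 pairs with at least 97% identity over their transcripts. The closest pair was Ighv1-62-2 and Ighv1-71, which differ at 1 of 359 bases counted from the start codon, T8G (Ighv1-62-2 base first). The first 40 coding bases of both show this base in capitals.
Ighv1-62-2: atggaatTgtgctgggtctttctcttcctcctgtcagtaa
Ighv1-71: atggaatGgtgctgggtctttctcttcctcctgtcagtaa

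Ighv1-62-2 lies at chr12:115446811-115446850 and Ighv1-71 at chr12:115742608-115742647 over these bases, both on the minus strand. Their counts averaged 72.1 and 56.0 in whole spleen. In number 445, where Ighv1-71 was high, Ighv1-62-2 took 0.518% of heavy counts in whole spleen and 0.409% in the size-selected sample, within its range over the other numbers. Igkv1-117 and Igkv1-110, both among the most abundant kappa segments, were 97.5% identical, and their shares are less certain than those of segments without such a partner. Of the 26 segments that differed between numbers, 1 belonged to such a pair (Ighv14-4, 97.4% identical to Ighv14-1). Just below this cut, Igkv4-55 and Igkv4-72, both among the 26, were 96.3% and 96.2% identical to Igkv4-68. The other segments are therefore not free of shared reads.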

How the data were processed

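RNA sequencing counts were analysed for 8 size-selected and 8 whole spleen samples. The deposited values are estimated counts per gene, which the authors made with tools of which the submitters' processing notes name Trim Galore, STAR, RSEM and DESeq, and the build mm10, with no versions, and the annotation is not given in the sources used here. In the deposited size-selected columns, 3898 genes hold values multiplied by constants from 0.659 to 0.964, as found from the values alone; 0 of the 348 variable segments carry one. Dividing by the constants gives restored counts, an alternative below. The authors' own comparison table was not used.

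Members, gene lists and tests were chosen with earlier results of these data known. One gene of the lists, and the counts of its list, are not reported here. Segments were matched to GENCODE M21 (GRCm38), which held all 348. Expected counts were rounded for edgeR 4.0.16 (R 4.3.3; filterByExpr with a minimum count of 10, TMM, quasi-likelihood F test, Benjamini-Hochberg adjustment over all genes tested, called under 0.05). The fraction fit used the group over 16 samples, the number fit the group and the number, and the sex fits the 8 samples of 1 group. CPM use TMM-scaled totals. Log2 shares for the correlations had a prior count of 1. Over all genes tested, the deviations of samples of the same number correlated at 0.12 to 0.37 in every number, so the fit with the number as a block is printed where it changed a count. On simulated counts the fraction fit recovered 95.4% of 194 changed genes among 14726, with 9 unchanged genes among 194 calls. The number fit recovered 68.9% of 196 among 14358, with 16 unchanged among 151 calls, and the whole spleen sex fit 89.0% of 181 among 13405, with 5 unchanged among 166 calls.

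Genes named in the text are the 8 heavy, 8 kappa and all lambda segments with the highest mean share, the 8 with the smallest p between numbers, the 4 largest and 4 smallest CVs among heavy and kappa segments, the 4 largest and 4 smallest fold changes, the 2 with the smallest p in each sex comparison, and the 2 on each side of the minimum; not all of these were printed. Other segments named (such as Igkv3-4, Igkv4-68, Ighv1-75 and the near-identical pairs) were chosen after their values were seen. Alternatives were RLE scaling, no filter beyond 1 count in total, DESeq2 1.42.0, restored counts, sex or number as a term, minimum means of 1 and 50 counts, and leaving out each number. Intervals and floors for single counts were not used.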

Additional observations from a re-analysis of the deposited data

Results flagged for a closer look

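In 93 sets of 8 values (the shares of the named segments in each group, and the same-number correlations), the highest or lowest value was tested for its gap to the rest with Dixon's test, which flags about 1 in 20 sets by chance, or 4.65 here. It flagged 26. The segments were named partly for their spread, so the excess is a description.

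In number 436, the outlying shares were Ighv1-53 at 10.8% of heavy counts in whole spleen and 12.9% in the size-selected sample, Ighv5-4 at 8.93% in whole spleen, Ighv14-4 at 2.40% and 5.63%, and, in the size-selected sample, Igkv4-55 at 14.7% and Igkv4-72 at 2.85% of kappa counts. In number 427 they were Igkv4-63 at 2.19% of kappa counts in whole spleen and 4.11% in the size-selected sample, Ighv2-3 at 3.56% and 4.01% of heavy counts, and Ighv1-26 at 3.97% in the size-selected sample. Number 445 stood out for Igkv8-30, with 6.88% of kappa counts in whole spleen and 13.1% in the size-selected sample, and for Ighv1-71, with 2.51% and 4.30% of heavy counts. Number 447 stood out for Ighv1-9, with 10.6% and 12.3% of heavy counts, and Igkv4-80, with 2.89% and 2.53% of kappa counts.

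The other outlying values were seen in 1 group only. In number 460 they were Ighv1-64 at 14.0% of heavy counts and Igkv8-27 at 4.56% of kappa counts in the size-selected sample, and Iglv3 at 12.5% of lambda counts in whole spleen. Igkv9-123 was at 0.354% of kappa counts in whole spleen of number 407, and Igkv7-33 at 0.679% in the size-selected sample of number 435. The same-number correlation of number 460 (0.09) was below the 0.44 to 0.69 of the other 7 numbers.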

How the results depend on the processing

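The count of segments lower in the size-selected group (100) became 151 with the number as a replicate block (lower among all genes tested: 30.4% and 31.3%), and was 88 to 98 when 1 number was left out. None was higher under any of the settings run. The count that differed between numbers (26) was 95 with DESeq2, where 9.52% of the genes with an adjusted p passed, and 62 without the filter on low counts, where 1.58% did. It was 20 when numbers were tested within sex, and 14 to 25 when 1 number was left out, lowest without 445, and all 26 remained among the calls with DESeq2, without the filter, with RLE scaling and with restored counts. The 2 segments that differed by sex in whole spleen (0.194% of all genes tested) became 9 with DESeq2 (3.67%), 12 without the filter (1.13%), and 1 to 4 with 1 number left out: 4 without 427 (1.91%) and 1 without 445 (0.0584%), 447 (0.0584%) or 460 (0.0512%). In the size-selected samples the 0 became 3 with DESeq2 (0.13%) and was 0 with each number left out. The causes were not tested.

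Among the 40 segments for which single values were recomputed, the direction between groups turned for Ighv1-11 with DESeq2 (0.56), for Igkv14-130 with the block (−0.54) and without number 436 (−0.18), and for Ighv3-8 without number 427 (0.01) or 460 (0.03). With 1 number left out, Igkv14-130 ranged from −0.18 to 0.52 and Ighv3-8 from −0.42 to 0.03, all on the log2 scale and none past the threshold. The share of all counts, the effective numbers and the agreement of same-numbered samples moved by less than 1 SD under the alternatives run. Without number 427 the agreement was 0.47, and without number 460, an alternative added after the data were seen, it was 0.58. The counts of listed genes that the block changed are given with the lists. Segments with few counts are limited by depth, and the 13 of 179 that did not pass the filter have no test.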
